A study of Rattus norvegicus with 8 samples.

Results

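Cartpt-high neurons are here the 1294 nuclei of the rat nodose ganglion that held 2 or more transcripts of Cartpt, counted as unique molecular identifiers (UMIs), and also 2 or more UMIs of the neuronal genes Slc17a6, Snap25 and Scn10a in sum. They were 4.15% of the 31172 nuclei that met the neuron condition, called neurons from here on, and 3.52% of all 36741 nuclei. They are compared with the 27059 neurons that held 0 Cartpt UMIs, called Cartpt-0 neurons. The 2819 neurons with exactly 1 Cartpt UMI are in neither group.

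The study profiled single nuclei of left and right nodose ganglia from experimentally naive Long Evans rats aged 8 weeks, 18 male and 18 female. Each pool joined 6 ganglia, 1 per rat and all of the same side, and there were 3 pools per combination of labelled sex and side. The pools are written ML1 to ML3 (male, left), MR1 to MR3 (male, right), FL1 to FL3 (female, left) and FR1 to FR3 (female, right). Every pool was spread over the 8 deposited sublibraries, which differ technically and not by group. Both ganglia of the rats were taken, so left and right pools of a sex draw on the same 18 rats, so p-values describe the spread between these pools and not between independent animals.

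Cartpt encodes the precursor of the cocaine- and amphetamine-regulated transcript peptides, which are cut from a prohormone inside dense core vesicles and released by neurons. In the vagus nerve these peptides are known from afferent neurons that respond to gut hormones such as cholecystokinin, and the peptides reduce feeding. The nodose ganglion holds the cell bodies of visceral sensory neurons that develop from an epibranchial placode, and it is fused in rodents with the jugular ganglion, whose neurons come from the neural crest and resemble somatic sensory neurons.

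The 250 bases before the annotated start of Cartpt (RefSeq, GRCr8, chr2:32991236-32991485, minus strand, printed 5′ to 3′ along the gene) are shown because this gene defines the nuclei described here. Capitals mark the cyclic AMP response element TGACGTCA, which begins at base -142 from the start, and the TATA-box-like TATAAG, which begins at base -31.

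Cartpt upstream: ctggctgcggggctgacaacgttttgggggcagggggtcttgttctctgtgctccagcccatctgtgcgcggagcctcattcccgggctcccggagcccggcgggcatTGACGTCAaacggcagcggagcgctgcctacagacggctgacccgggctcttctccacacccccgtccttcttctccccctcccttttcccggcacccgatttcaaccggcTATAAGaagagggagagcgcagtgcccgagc

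Searched on both strands, TGACGTCA stood in 1.59% and TATAAG in 7.01% of the 33469 upstream windows of the same length in that table. A match is a description of the letters only.

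Pools held between 7140286 and 19456287 UMIs. The median UMI count per neuron lay between 2421 and 4123 in the 12 pools. Counts of Y-linked genes went against the sex labels of 2 pools: ML1 had 2.88 CPM (counts scaled to a common library total), where the other male-labelled pools had at least 84.4, and FL1 had 88.6 CPM, where the other female-labelled pools had at most 3.95. Results by sex are therefore written by label, and the main tests by sex are given also without both pools. Of all nuclei, 3808 carried a barcode that also occurred in another sublibrary (1865 distinct barcodes), among them 136 Cartpt-high nuclei, and these were counted as separate nuclei.

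The values that chose the nuclei are given as a description. Of the 1294 nuclei, 755 had exactly 2 Cartpt UMIs, 276 had 3 and 263 had 4 or more, with a highest count of 15. Summed over these nuclei Cartpt stood at 301 CPM. Only 9 of them had exactly 2 neuron gene UMIs, and 16 further nuclei with 2 or more Cartpt UMIs were left out because they had 1 or 0. Depth rose with the number of Cartpt UMIs. The median total was 8188 UMIs in Cartpt-high neurons, 4908 in those with 1 Cartpt UMI and 2859 in Cartpt-0 neurons. Among neurons below 1500 UMIs 0.327% were Cartpt-high, and among those with 7000 or more 17.5% were. Each comparison with Cartpt-0 neurons was therefore repeated against 1294 Cartpt-0 neurons of the same pools with the nearest total counts, called depth-matched (median 8182 UMIs).

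Cartpt UMIs also occurred in nuclei with 0 UMIs of the 3 neuron genes. At least 1 Cartpt UMI was found in 13.2% of neurons (median 3096 UMIs), in 5.05% of 535 nuclei carrying satellite glia markers (median 1766 UMIs; exact 95% binomial interval 3.35 to 7.26%) and in 4.1% of 1097 nuclei carrying myelinating Schwann cell markers (median 1340 UMIs; 3.01 to 5.45%). When every nucleus with at least 2000 UMIs was thinned at random to 2000, the shares became 7.57% in neurons, 5.45% in the satellite glia group and 5.37% in the Schwann cell group. They were 4.68% in nuclei carrying fibroblast markers, 1.16% with endothelial markers, 8.11% with skeletal muscle markers (37 nuclei) and 4.16% over all nuclei with 0 UMIs of the 3 neuron genes (385 nuclei). A single Cartpt UMI at that depth was therefore not read as a sign of a Cartpt-high neuron. At 2 or more UMIs the share was 4.15% in neurons, 0.187% in the satellite glia group and 0.273% in the Schwann cell group, at unequal depth. Intervals cover counting error only.

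The label was checked against markers of vagal neurons. Of 10 genes listed for nodose neurons 6 were tested, and all 6 were higher in Cartpt-high than in Cartpt-0 neurons, among them Hoxb5, Hoxb6, Hoxc4, P2rx2 and Tbx3. Of the 7 tested genes of the jugular list, 0 were higher and 4 were lower. Over all 12048 genes tested, 27.1% were called higher and 26.1% lower (edgeR's quasi-likelihood test over 12 pools, Benjamini-Hochberg adjusted p under 0.05). Against depth-matched nuclei 3 of 4 tested nodose genes were higher (Hoxb5, P2rx2, Tbx3), 2 of 4 tested jugular genes were lower, among them Tac1, and of 9255 genes 33.6% were called, 16.7% higher and 17.0% lower.

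Tbx3, a T-box transcription factor, stood at 102 to 154 CPM in the 12 pools of Cartpt-high nuclei (median 127) and at 51.7 to 79.7 CPM in Cartpt-0 nuclei (median 61.3). The 2 sets of pools did not overlap, as was so in either direction for 9.25% of all genes tested. Its log2 fold change was 1.08 ± 0.06 (standard error, adjusted p = 1.25e-18) and 1.00 against depth-matched nuclei (adjusted p = 1.63e-11).

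Among genes of any function, the 12 with the largest rise and the 12 with the largest fall were named by a rule that asked for a call at both depths, the same direction in 12 of 12 pools and at least 20 CPM in the higher group. Of all genes tested 10.4% were higher and 11.0% lower in 12 of 12 pools. The risers were Amigo2, Chrna3, Itm2a, Chrm4, Sctr, Wnt2b, Dsp, Doc2b, Hoxb5, Nsg1, Bex1 and Epcam, with log2 fold changes from 1.76 down to 1.29. The genes that fell were Hs6st2, Tac1, Adgrg2, Grm8, Cntn3, Adam11, Csmd3, Tmem233, Piezo2, Brinp3, Tmem163 and Nptx1, from -2.87 to -2.62. Falls were larger than rises: 392 genes fell by at least 1 on the log2 scale (3.25% of those tested) and 99 rose by as much (0.822%).

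**Figure D1:**
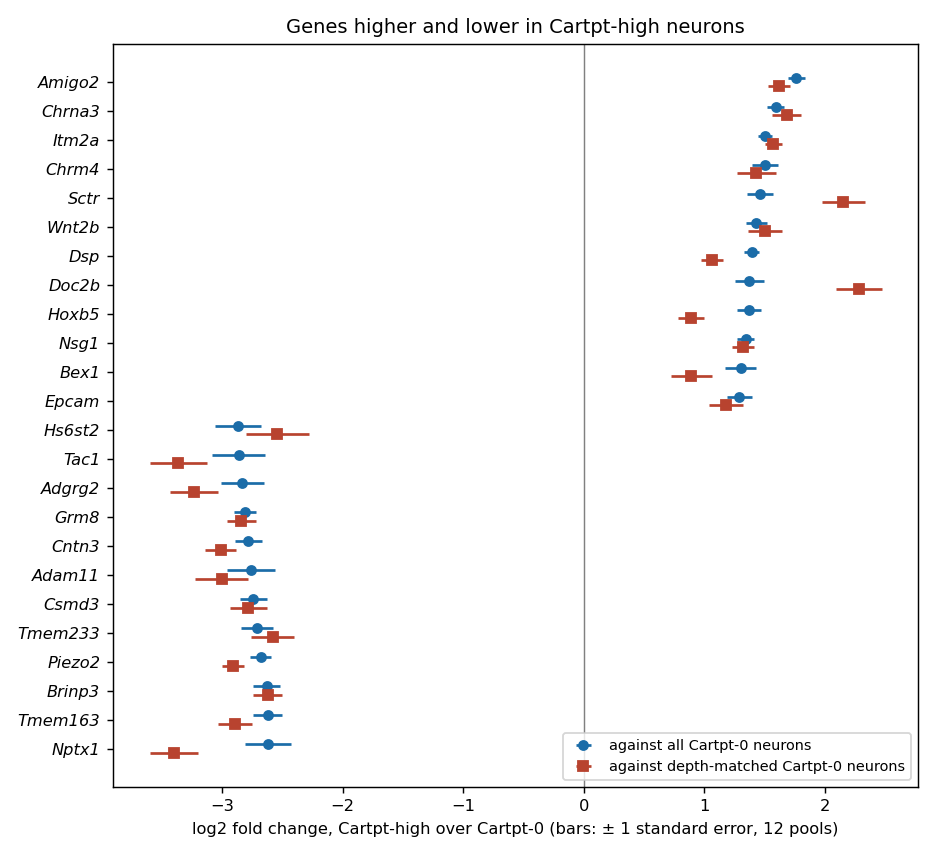
Log2 fold change of Cartpt-high over Cartpt-0 neurons (x axis) for the 24 genes named by the rule (y axis), against all Cartpt-0 neurons (circles) and against depth-matched ones (squares); bars are ± 1 standard error over 12 pools. At matched depth, where the rule fixed the direction, sizes were 0.89 to 2.28 for risers and 2.54 to 3.40 for genes that fell.

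Amigo2, a neuronal cell adhesion protein, was at 71.2 to 166 CPM in Cartpt-high nuclei (median 114) and at 29.1 to 44.4 CPM in Cartpt-0 nuclei (median 33.7). Every Cartpt-high value lay above every Cartpt-0 value, as was so in either direction for 9.25% of all genes tested. The log2 fold change was 1.76 ± 0.07 (adjusted p = 4.98e-22).

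Itm2a, an integral membrane protein, was at 175 to 309 CPM in Cartpt-high nuclei (median 228) against 60.9 to 118 CPM in Cartpt-0 nuclei (median 73.1). Dsp, the desmosomal linker desmoplakin, was at 139 to 346 CPM (median 245) against 59.4 to 134 CPM (median 88.9). Epcam, an epithelial adhesion molecule, was lower in absolute level, at 14.2 to 36.5 CPM (median 27.1) against 8.48 to 13.7 CPM (median 10.5). For all 3 genes the Cartpt-high and Cartpt-0 pools were apart.

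Chrna3, a nicotinic receptor subunit, stood at 115 to 248 CPM in Cartpt-high nuclei (median 186) and 43.9 to 83.4 CPM in Cartpt-0 nuclei (median 60.1), a log2 fold change of 1.59 ± 0.07 (adjusted p = 1.34e-21). Chrm4, a muscarinic receptor, was at 9.70 to 34.6 CPM (median 21.2) against 5.35 to 10.3 CPM (median 7.52), and its pools overlapped slightly although it was higher in 12 of 12. At matched depth the log2 fold changes were 1.68 and 1.43.

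Receptors for gut and metabolic signals were tested as a list. Of 21 listed genes 10 were tested, of which 5 were higher (Cckar, Sctr, Npy2r, Gpr65 and Glp1r) and 3 lower (Cckbr, Lepr and Insr), with a median log2 fold change of 0.30 where the median over all genes was -0.01. Of all genes 27.1% were higher and 26.1% lower. At matched depth 6 were tested, 3 were higher (Cckar, Sctr and Gpr65) and 0 lower, where 16.7% and 17.0% of all genes were. Cckar, the receptor for cholecystokinin on vagal afferents, was at 24.4 to 107 CPM in Cartpt-high nuclei (median 57.2) and 13.9 to 36.1 CPM in Cartpt-0 nuclei (median 25.9). The fold change grew when depth was matched, from 1.15 ± 0.08 (adjusted p = 7.06e-15) to 1.52 (adjusted p = 1.06e-11) on the log2 scale, and Cckar was higher in 12 of 12 pools both times.

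Sctr, the secretin receptor, was at 17.0 to 55.6 CPM in Cartpt-high nuclei (median 30.4), at 8.25 to 18.3 CPM in Cartpt-0 nuclei (median 11.6) and at 3.79 to 13.2 CPM in depth-matched ones (median 9.15). The Cartpt-high pools lay wholly above the depth-matched pools and overlapped the full Cartpt-0 pools a little. Glp1r, the receptor for glucagon-like peptide, was at a median of 36.5 against 29.8 CPM and did not pass at matched depth (log2 fold change 0.30, adjusted p = 0.0639). Npy2r, a receptor for neuropeptide Y and peptide YY, was at medians of 7.84 and 3.96 CPM (log2 fold change 1.15, adjusted p = 4.83e-07), and was too low to be tested at matched depth. Mc4r, Gipr and Ghsr were among the 10 genes of the list below the count filter.

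**Figure D2:**
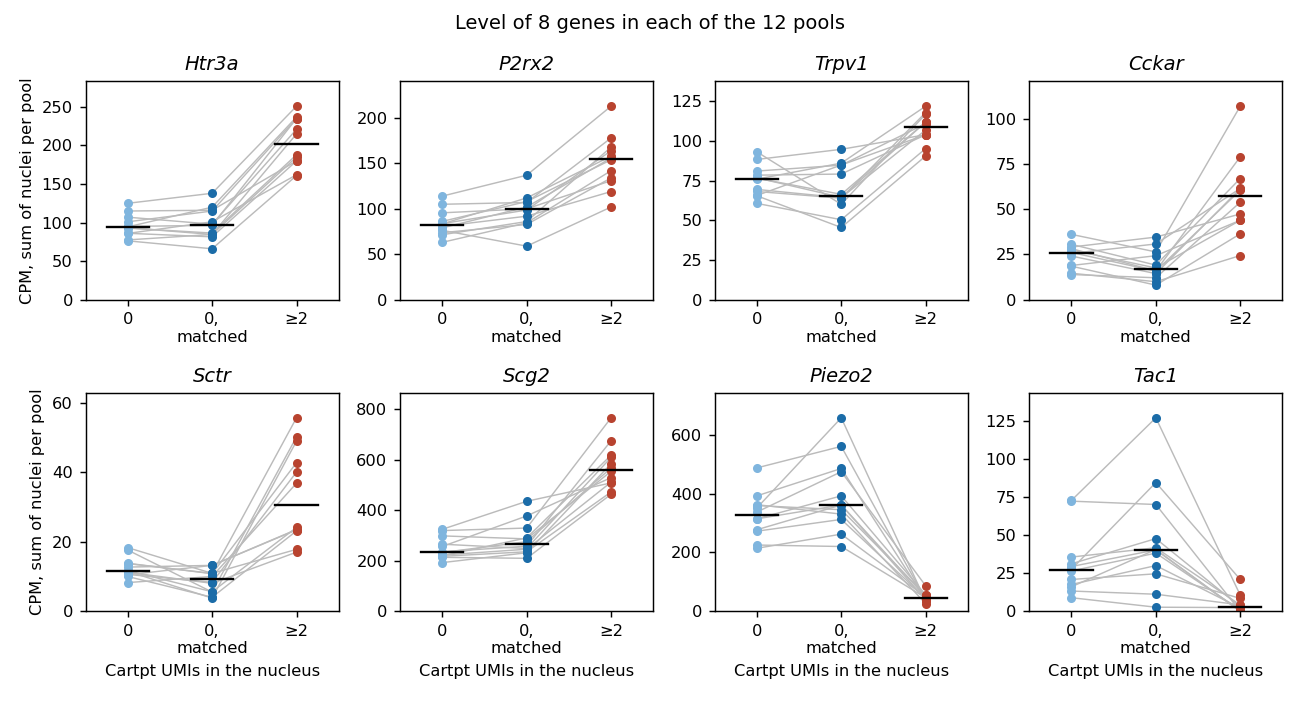
Level (y axis, CPM of summed counts) of 8 genes in each of the 12 pools for neurons with 0 Cartpt UMIs, depth-matched neurons with 0, and Cartpt-high neurons (x axis); grey lines join a pool and black bars are medians. Htr3a rises from a median of 93.8 to 202 CPM and Piezo2 falls from 326 to 45.3 CPM.

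Sensory channels included genes that rose and genes that fell. Of 19 listed, 17 were tested, 6 were higher and 9 lower (median log2 fold change -0.13; 27.1% and 26.1% of all genes), and at matched depth the counts were again 6 and 9, of 16 tested (16.7% and 17.0% of all genes). Higher at matched depth were Htr3a, Htr3b, P2rx2, Trpa1, Trpv1 and Tmc3. Among the lower were Asic1, Asic2, Asic3, P2rx3, P2ry1, Piezo2, Tmem63b and Trpm8. Tmc3 and Tmem63b turned between the 2 comparisons, from -0.13 to 0.17 and from 0.12 to -0.16 on the log2 scale. Htr4, a serotonin receptor, was at 0 to 1.81 CPM in Cartpt-high and 3.03 to 26.1 CPM in Cartpt-0 nuclei, and was too low to be tested at matched depth.

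Htr3a, a subunit of the serotonin-gated channel through which enterochromaffin cells excite vagal fibres, was at 161 to 251 CPM in Cartpt-high nuclei (median 202) and 76.3 to 125 CPM in Cartpt-0 nuclei (median 93.8). The log2 fold change was 1.09 ± 0.05 (adjusted p = 4.03e-21) and 1.06 at matched depth. Its partner subunit Htr3b was at 265 to 384 CPM (median 317) against 163 to 229 CPM (median 183). Neither gene's pools overlapped between the groups, as for 9.25% of all genes tested. The capsaicin receptor Trpv1 rose by 0.55 and the irritant receptor Trpa1 by 0.70 on the log2 scale (adjusted p = 2.42e-11 and 3.81e-14).

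Piezo2, the mechanically gated channel of touch and stretch receptors, was at 26.1 to 86.6 CPM in Cartpt-high nuclei (median 45.3) and 214 to 487 CPM in Cartpt-0 nuclei (median 326). The pools did not overlap, as for 9.25% of all genes tested. The log2 fold change was -2.68 ± 0.09 (edgeR adjusted p = 6.35e-25) and -2.91 at matched depth. Thinned to 2000 UMIs, 6.78% of Cartpt-high nuclei held a Piezo2 UMI against 25.8% of Cartpt-0 and 28.4% of depth-matched nuclei, and unthinned the shares were 20.6% of Cartpt-high and 45.7% of depth-matched nuclei. Asic1, a proton-gated channel, was at a median of 5.35 against 28.0 CPM (log2 fold change -2.17). Trpm8, the cold receptor, was at 5.25 against 30.6 CPM (adjusted p = 6.73e-13).

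Grm8, a metabotropic glutamate receptor, was at 4.85 to 18.1 CPM in Cartpt-high nuclei (median 13.3) and 55.3 to 161 CPM in Cartpt-0 nuclei (median 94.8). Tmem233, a membrane protein of sensory neurons, was at 6.28 to 44.4 CPM (median 18.7) against 84.4 to 271 CPM (median 145). Brinp3, a neuronal secreted protein, was at 7.53 to 46.2 CPM (median 18.2) against 91.0 to 153 CPM (median 112). In all 3 the highest Cartpt-high pool lay below the lowest Cartpt-0 pool.

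Other neuropeptide precursors were mostly scarce. Of 23 genes listed 5 passed the count filter, with 0 higher and 2 lower, Calca and Tac1, beside 27.1% and 26.1% of all genes. Tac1, the precursor of substance P, was at 0 to 20.9 CPM in Cartpt-high nuclei (median 2.72) and 8.91 to 72.8 CPM in Cartpt-0 nuclei (median 27.1), lower in 12 of 12 pools (log2 fold change -2.86 ± 0.22, adjusted p = 7.42e-14). Calca, the precursor of calcitonin gene-related peptide, was at a median of 5.46 against 20.1 CPM (log2 fold change -1.64, adjusted p = 4.45e-10). Adcyap1, the precursor of a pituitary adenylate cyclase-activating peptide, was at medians of 43.5 and 44.5 CPM, and did not pass the test (adjusted p = 0.554).

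Dense core vesicles are where Cartpt's product is processed. Of 19 tested genes of their machinery 8 were higher and 6 lower (27.1% and 26.1% of all genes), and at matched depth, where 16.7% and 17.0% of all genes were called, 8 of 18 were higher (Pam, Pcsk1, Pcsk1n, Ptprn, Ptprn2, Scg2, Scg3 and Syt4) and 7 lower (Cadps, Cadps2, Chga, Chgb, Cpe, Pcsk2 and Rab27b). The 2 prohormone convertases went opposite ways. Pcsk1 was at 175 to 251 CPM in Cartpt-high nuclei (median 227) against 118 to 159 CPM in Cartpt-0 nuclei (median 137), and Pcsk2 at 181 to 301 CPM (median 237) against 330 to 394 CPM (median 364). The log2 fold changes were 0.73 and -0.58 (edgeR adjusted p = 7.93e-16 and 5.72e-14). In both genes the pools were apart, as for 9.25% of all genes tested.

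Scg2, the granin secretogranin, was at 464 to 767 CPM in Cartpt-high nuclei (median 561) against 193 to 325 CPM in Cartpt-0 nuclei (median 234), with a log2 fold change of 1.21 ± 0.06 (adjusted p = 1.98e-20). Syt4, a vesicle synaptotagmin, was at 785 to 973 CPM (median 852) against 303 to 459 CPM (median 365). Doc2b, a calcium sensor of exocytosis, was at 17.5 to 30.8 CPM (median 25.5) against 6.62 to 12.4 CPM (median 9.08). Chgb, a second granin, differed little against all Cartpt-0 nuclei (log2 fold change -0.18) and fell by 0.73 at matched depth (adjusted p = 2.18e-11).

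Of 14 tested genes listed for thick, myelinated afferents, 8 were lower and 1, Nefl, higher (median log2 fold change -0.33), beside 26.1% and 27.1% of all genes. The remaining 5 were not called, among them Nefm at 0.05 and Ntrk2 at 0.07. At matched depth 12 were lower and 1, Ntrk2, higher (median -0.72, all genes 0.00), beside 17.0% and 16.7% of all genes. Scn1a, a sodium channel of fast fibres, was at 32.0 to 67.9 CPM in Cartpt-high nuclei (median 52.1) against 121 to 183 CPM in Cartpt-0 nuclei (median 152). The neurofilament genes depended on depth: Nefh had a log2 fold change of -0.04 against all Cartpt-0 nuclei and -0.87 at matched depth (adjusted p = 2.15e-13), and Nefl one of 0.61 and -0.08.

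Among general neuron genes 4 of 8 were higher (Prph, Stmn2, Tubb3 and Uchl1) and 4 lower, beside 27.1% and 26.1% of all genes. Prph, the intermediate filament of small sensory neurons, was at 481 to 778 CPM (median 655) against 259 to 428 CPM (median 333). Rbfox3, the neuronal splicing factor NeuN, was at 38.5 to 70.7 CPM (median 48.0) against 84.8 to 217 CPM (median 136). In both the pools were apart, as for 9.25% of all genes tested. Of 5 tested activity and injury genes, 1 was higher, the growth cone protein Gap43 (log2 fold change 0.50), and 0 lower. At matched depth 2 of them were tested. Gap43 was higher (0.58) and Jun lower (-0.57, edgeR adjusted p = 0.000437), where 16.7% and 17.0% of all genes were.

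Markers of other cell types differed between the groups, and the differences changed at matched depth. Satellite glia genes summed to 449 to 1210 CPM in the pools of Cartpt-high nuclei (median 764), 487 to 1020 CPM in Cartpt-0 nuclei (median 727) and 725 to 1370 CPM in depth-matched ones (median 876), with 0 of their 9 measured genes at 0. Of 8 tested, 3 were higher and 1 lower, but 0 higher and 3 lower at matched depth. Of 6 Schwann cell genes 0 were higher and 4 lower, of 7 endothelial genes 0 and 4, and of 4 muscle genes 0 and 4, beside 27.1% and 26.1% of all genes. At matched depth 0 of 5 tested Schwann cell genes were higher and 5 lower. Of 2 tested endothelial genes 0 were higher and 1 lower there, and of 2 tested muscle genes 0 and 1. Of all genes 16.7% were higher and 17.0% lower at matched depth. Of 2 tested macrophage genes 1 was higher, Mrc1 (log2 fold change 0.49, adjusted p = 0.027), and both were too low to be tested at matched depth. The 8 macrophage genes summed to 5.53 to 47.0 CPM in Cartpt-high pools (median 23.8) and 9.56 to 20.6 CPM in Cartpt-0 pools (median 17.0). The mitochondrial share of UMIs had a median of 3.69% in Cartpt-high, 2.06% in Cartpt-0 and 3.35% in depth-matched nuclei. With the mitochondrial share matched as well as depth, 25.7% of 9259 genes were called, 1116 higher (12.1%) and 1260 lower (13.6%), and 23 of the 24 named genes were tested and called in the same direction. The rule that named these genes asked for calls with the same Cartpt-high nuclei, so this agreement is not an independent check. The part of other cell types' markers and of the mitochondrial share in the results was not tested further.

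Some genes followed the number of Cartpt UMIs in order and others did not. The classes use the counts that chose the nuclei, and nuclei with more Cartpt UMIs were deeper (median 2859 UMIs at 0 and 13334 at 5 or more). Summed over the nuclei at 0, 1, 2, 3 or 4, and 5 or more Cartpt UMIs, Amigo2 stood at 34.9, 76.1, 103, 132 and 157 CPM. Scg2 stood at 246, 377, 507, 638 and 716 CPM. Piezo2 went the other way, at 329, 120, 54.3, 51.4 and 28.7 CPM. From 2 UMIs on there was no such order for Pcsk1 (205, 261 and 215 CPM), Sctr (32.8, 43.0 and 37.5), Htr3a (205, 198 and 216), Tmem233 (27.1, 11.5 and 23.6) or Grm8 (12.3, 16.8 and 8.79). Depth-matched nuclei with 0 Cartpt UMIs had 39.6 CPM of Amigo2, 275 of Scg2 and 365 of Piezo2, near the values of all Cartpt-0 nuclei. Genes differed in this. All and depth-matched Cartpt-0 nuclei had 24.8 and 35.9 CPM of Hoxb5 and 30.9 and 42.7 of Tac1, but 78.9 and 78.0 of Itm2a and 95.6 and 99.6 of Htr3a. The depth-matched nuclei had a median of 8182 UMIs, less than the class with 5 or more Cartpt UMIs. These sums pool all samples and are given without a test.

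**Figure D3:**
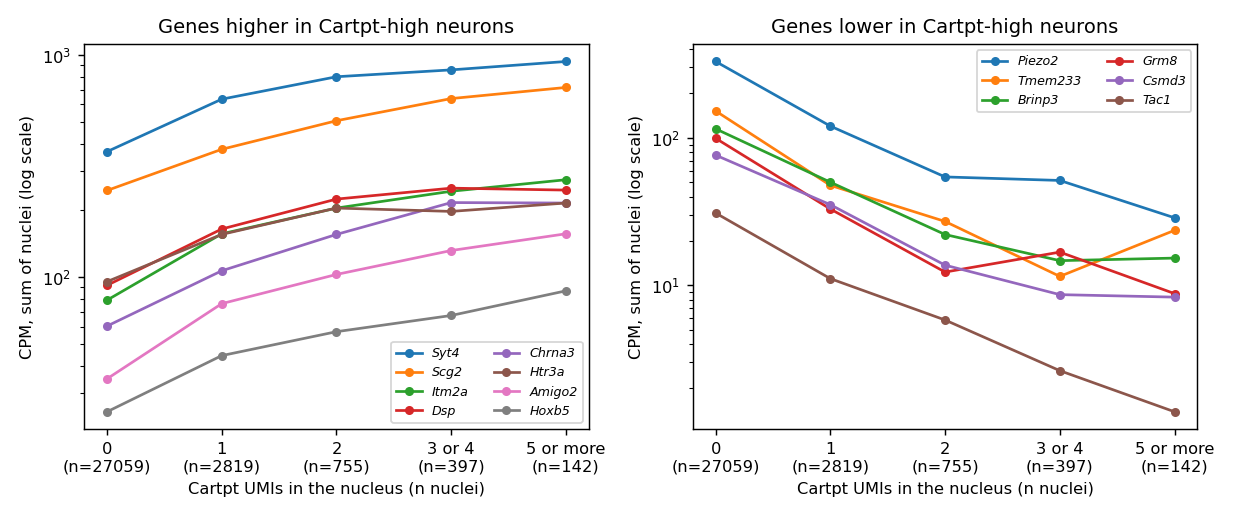
Level (y axis, CPM of summed counts, log scale) of 8 genes that were higher and 6 that were lower in Cartpt-high neurons, by the number of Cartpt UMIs in the nucleus (x axis, with the number of nuclei). Nuclei with 1 UMI lie between those with 0 and those with 2, as for Amigo2 at 34.9, 76.1 and 103 CPM.

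Neurons were grouped into 26 clusters from the 2000 most variable genes. Cartpt was left out beforehand, so that it could be compared between clusters, as were a few sex-linked genes and genes whose names begin with Mt-. Its level was highest in clusters 7 (113 CPM), 5 (111), 23 (110) and 2 (107), followed by 8 (82.0) and 16 (81.9), against 50.2 CPM over all neurons and 26.7 CPM in nuclei that did not meet the neuron condition. In each of these 6 clusters the level exceeded that of all neurons in 12 of 12 pools. Over the pools it ran from 53.1 to 141 CPM in cluster 7, 59.5 to 188 in cluster 5, 66.3 to 165 in cluster 23 and 67.6 to 148 in cluster 2, so the order among these 4 does not stand out from their spread. At the other end it was 2.94 CPM in cluster 20 (led by Htr4 and Il31ra), 6.35 in cluster 19 (Ddc, Dcc), 6.81 in cluster 15 (Pcdh15, Ndst4), 7.13 in cluster 24 (Poteg, Kcnj6), 7.49 in cluster 6 (Calca, Tac1) and 8.27 in cluster 12 (Csmd3, Cdh7, Brinp3), below the level in the nuclei that did not meet the neuron condition.

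**Figure D4:**
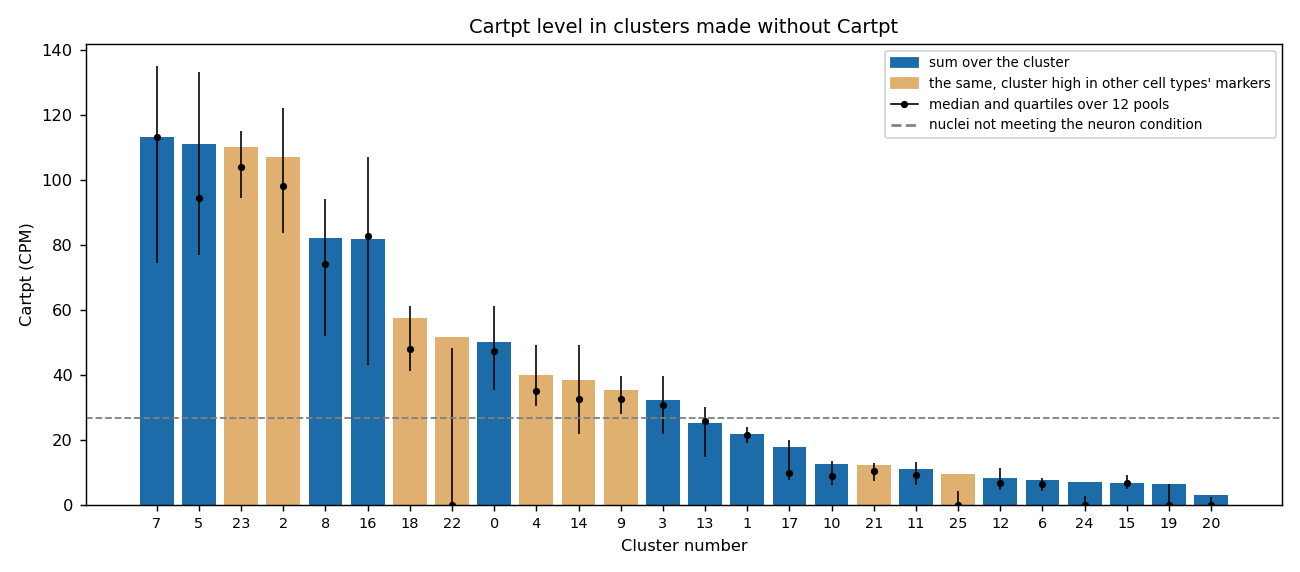
Cartpt level (y axis, CPM) in the 26 clusters of neurons (x axis, cluster number), as the sum over the cluster (bars, pale for clusters high in other cell types' markers) and as the median with quartiles over 12 pools (points and lines). Clusters 7, 5, 23 and 2 stand at 107 to 113 CPM, and the dashed line marks the 26.7 CPM of nuclei that did not meet the neuron condition.

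The Cartpt-high nuclei were spread over these clusters. Cluster 7, led by Itm2a, Sez6l, Tafa4, S1pr3 and Trpa1, held 250 of them, 17.8% of its neurons (median 6042 UMIs). Cluster 5, led by Xylt1, Sctr, Cckar and Chrna3, held 158, or 10.1% (median 3369 UMIs). Cluster 23, a small group of 188 neurons led by Chodl, Kcng1 and Otof, held 44, or 23.4% (median 6825 UMIs). Cluster 0, led by Itgae and Gpr65, held 158, or 4.36%. Cluster 2 held the most, 319 or 9.54% of its neurons (median 2280 UMIs), and was led by Col28a1 and Kctd12, which are not among the neuron markers. Its Cartpt-high nuclei had a median of 11314 UMIs, where those of cluster 7 had 8603 and those of cluster 5 had 6558. The satellite glia marker Apoe stood at 616 CPM in Cartpt-high nuclei of cluster 2, 1440 in those of cluster 4, 23.5 in cluster 7 and 18.2 in cluster 5. Clusters 19, 20 and 25 held 0 of 446, 396 and 122 neurons. The depth-matched Cartpt-0 neurons were not spread over the clusters as all neurons were. Cluster 13 held 9.66% of them and 3.07% of all neurons, and cluster 1 held 3.55 and 11.2%. The part of this make-up in the values at matched depth was not tested.

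Levels differed between clusters. Among Cartpt-high nuclei Cckar stood at 324 CPM in cluster 5 and at 7.83 CPM in cluster 7. Glp1r stood at 178 CPM in cluster 5 and 4.35 CPM in cluster 7. In contrast Htr3a stood at 39.0 CPM in cluster 5, 350 in cluster 7 and 303 in cluster 0, and Trpa1 at 58.1, 905 and 190 CPM. Gpr65, a proton-sensing receptor, was at 174 CPM in cluster 0 and at most 68.7 CPM in the other clusters with 30 or more Cartpt-high nuclei. Adcyap1 was at 163 CPM in cluster 23, and at 11.8 in cluster 5 and 35.7 in cluster 7. The clustering could draw on these genes, and the values are a description.

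Scg2 and Syt4 stood at 972 and 1050 CPM in Cartpt-high nuclei of cluster 5, 900 and 1150 CPM in those of cluster 7, 578 and 836 CPM in cluster 2 and 237 and 766 CPM in cluster 0. Cartpt-high and Cartpt-0 neurons were also compared within a cluster, with fewer nuclei and fewer genes tested. In cluster 7, 9.74% of 4724 tested genes were called, 228 higher (4.83%) and 232 lower (4.91%). There Scg2 had a log2 fold change of 0.50 (adjusted p = 5.18e-11), Htr3a one of 0.63 and Amigo2 one of 0.33 (adjusted p = 0.0556). In cluster 5, 26.6% of 3319 genes were called, 504 higher (15.2%) and 379 lower (11.4%), with 1.10 for Scg2, 0.96 for Amigo2, 0.84 for Chrna3 and 1.23 for Dsp. Nefl had 0.97 there and 0.61 over all neurons, and Chgb had 0.85 there (adjusted p = 0.000146) and -0.18 over all neurons. Of the 12 named risers, 8 were tested within cluster 7, of which 5 were higher, and 6 within cluster 5, of which 5 were higher. The rule that named the risers used these same Cartpt-high nuclei among others, so these counts are not an independent check. Tbx3 (0.01 in cluster 7 and 0.35 in cluster 5) and Gap43 (0.08 and 0.17) were called in neither cluster. Pcsk1 was not called in cluster 7 (0.02) and was higher in cluster 5 (0.66), where Sctr was not called (0.27). These fits were not matched for depth.

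Sums of markers of a non-neuronal type were at least 1.5 times as high in 9 of the 26 clusters as in the remaining neurons, a limit chosen after the data were seen. Clusters 2 (satellite glia markers 1.88 times, macrophage markers 1.95 times) and 23 (satellite glia markers 1.57 times) are among the 9. Together the 9 clusters held 521 Cartpt-high nuclei, 40.3% of all, and this share was at least 44.4% in every male-labelled pool (highest in ML2, 21 of 30 nuclei) and 17.7 to 48.9% over the female-labelled ones. These nuclei had a median of 9740 UMIs, where all neurons of the 9 clusters had 3009. Without these clusters, 773 Cartpt-high nuclei remained, and 5188 of 11119 genes were called between them and Cartpt-0 neurons (6410 of 12048 with them, 53.2%). The doublet caller did not work on these data, as it marked 2 nuclei, 0.00544%. Leaving out the 5% with the highest doublet scores gave 6368 genes.

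Female-labelled pools held a larger share of Cartpt-high neurons. In the 6 male-labelled pools the share was 3.08, 1.53 and 1.89% on the left and 5.03, 2.42 and 2.15% on the right, and in the 6 female-labelled pools it was 5.83, 5.04 and 6.31% on the left and 7.96, 5.18 and 4.27% on the right. The ranges overlapped only through MR1, at 5.03%, above FR3. The means were 2.68 ± 1.26% and 5.76 ± 1.28% (SD, n = 6 each), a difference of 3.08 percentage points (exact permutation test within side, two-sided, p = 0.01, where 0.005 is the smallest p possible). Without ML1 and FL1 the difference was 3.15 points (exact permutation p = 0.0333).

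**Figure D5:**
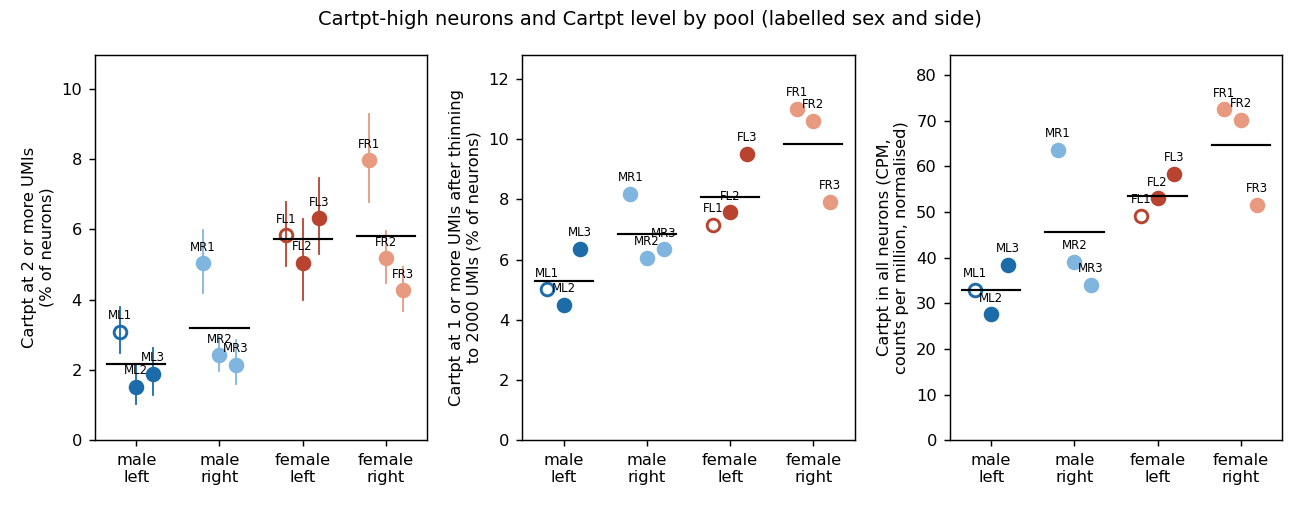
Share of neurons that were Cartpt-high (left, bars are exact 95% binomial intervals), share with a Cartpt UMI after thinning to 2000 UMIs (middle) and Cartpt CPM in all neurons (right) on the y axes, for the 12 pools by labelled sex and side (x axis); black lines are means of 3 pools and open circles are ML1 and FL1. In the left panel 5 of 6 male-labelled pools lie at or below 3.08% and all female-labelled pools at or above 4.27%.

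Depth moved with labelled sex too. The median UMI count per neuron averaged 2838 ± 412 over male-labelled pools and 3554 ± 472 over female-labelled ones (n = 6 each, exact permutation p = 0.015). At equal depth, thinned to 2000 UMIs, 6.07 ± 1.28% of male-labelled and 8.96 ± 1.64% of female-labelled neurons held a Cartpt UMI (n = 6 each, exact permutation p = 0.01). This measure counts single UMIs and is not a share of Cartpt-high neurons. It was 4.16% in nuclei with 0 UMIs of the 3 neuron genes. The shares of Cartpt-high neurons were also weighted to 1 common distribution of depth, a step added after the data were seen. They were then 3.12 ± 0.986% and 5.02 ± 1.02% (n = 6 each, exact permutation p = 0.01). Without the 9 clusters high in other cell types' markers they were 1.74 ± 1.36% and 5.45 ± 1.65% (n = 6 each, exact permutation p = 0.01). In nuclei that did not meet the neuron condition, Cartpt was at 22.15 ± 11.8 CPM over male-labelled pools and 27.18 ± 9.85 CPM over female-labelled ones (n = 6 each, exact permutation p = 0.435). Without ML1 and FL1 the male-labelled and female-labelled means were 2717 and 3440 median UMIs (exact permutation p = 0.0333), 6.29 and 9.32% after thinning (exact permutation p = 0.0333), 3.21 and 5.19% weighted to a common depth (exact permutation p = 0.0333) and 1.65 and 5.45% without the 9 clusters (exact permutation p = 0.0333). With n = 5 each 0.0167 is the smallest p possible. Cartpt in nuclei that did not meet the neuron condition was then at 22.4 and 29.5 CPM (exact permutation p = 0.35).

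The level of Cartpt in all neurons pointed the same way without passing the test over all genes. It was at 27.6 to 63.6 CPM in male-labelled pools (median 36.2) and 49.1 to 72.5 CPM in female-labelled pools (median 55.7). All but MR1 of the male-labelled pools lay below every female-labelled pool. The log2 fold change was 0.59 ± 0.14, with an unadjusted p of 0.000599 and an adjusted p of 0.176 in edgeR, where 0 of 14726 genes were called (0.0%; 1917, or 13.0%, at an unadjusted p under 0.05). DESeq2 gave 0.60 with an adjusted p of 0.0079, and leaving out MR1 gave 0.75 with an adjusted p of 0.013 in edgeR. Without ML1 and FL1 the edgeR values were 0.59 and 0.176.

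In cluster 7 the share of Cartpt-high neurons had a median of 8.97% over male-labelled pools (2.94 to 27.5%) and 22.1% over female-labelled pools (15.8 to 29.4%). In cluster 5 it was 3.49% (0 to 9.21%) and 15.2% (8.85 to 24.5%). In cluster 23 it was 23.6% (16.7 to 28.6%) and 26.8% (13.0 to 37.0%). In cluster 2 it was 9.24% (6.12 to 10.4%) and 10.3% (8.51 to 15.2%). Without ML1 and FL1 the medians were 7.95 and 19.2% in cluster 7, 3.12 and 15.9% in cluster 5, and 9.14 and 11.2% in cluster 2. The ranges by label still overlapped in each of these clusters and in cluster 23. They were 2.94 to 27.5% and 15.8 to 25.9% in cluster 7, and 0 to 8.89% and 8.85 to 24.5% in cluster 5. In cluster 2 they were 6.12 to 9.43% and 8.51 to 15.2%, and in cluster 23 16.7 to 28.6% and 13.0 to 37.0%. Cluster 7 itself made up a median of 3.79% of male-labelled (2.80 to 6.12%) and 5.01% of female-labelled neurons (3.87 to 7.54%), and cluster 5 4.56 and 5.35%. Summed over pools Cartpt was higher in female-labelled than in male-labelled pools in 20 of the 26 clusters, and higher in right than in left pools also in 20. These values were not tested cluster by cluster.

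In the unweighted share of Cartpt-high neurons, left and right did not differ beyond the spread between pools. The share weighted to a common depth was higher on the right. Left pools averaged 3.95 ± 2.06% and right pools 4.50 ± 2.13% (n = 6 each, exact permutation test within labelled sex, p = 0.475). After thinning, 6.68 ± 1.83% of left and 8.35 ± 2.08% of right neurons held a Cartpt UMI (n = 6 each, exact permutation p = 0.055). Weighted to a common depth, a step added after the data were seen, the shares of Cartpt-high neurons were 3.45 ± 1.19% and 4.69 ± 1.36% (n = 6 each, exact permutation p = 0.03). Neurons of left pools were deeper, at 3422 ± 565 against 2969 ± 507 median UMIs (n = 6 each, exact permutation p = 0.07). Without FR1 the unthinned difference turned to -0.137 points. Cartpt in all neurons was at 27.6 to 58.3 CPM on the left (median 43.7) and 34.0 to 72.5 CPM on the right (median 57.6), a log2 fold change of 0.37 (edgeR adjusted p = 0.593).

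Within Cartpt-high neurons, 8 of 10061 genes differed between sides (edgeR, 0.0795%), 2 higher (0.0199%) and 6 lower (0.0596%) on the right. Opcml, a cell adhesion protein of the opioid-binding family, was at 87.8 to 189 CPM in left pools (median 116) and 28.1 to 79.2 CPM in right pools (median 64.2). The sides did not overlap, as for 0.199% of genes, and the log2 fold change right over left was -1.06 ± 0.15 (adjusted p = 0.000775). Dpp10, an auxiliary subunit of voltage-gated potassium channels, was at 285 to 580 CPM on the left (median 525) and 613 to 902 CPM on the right (median 738), again without overlap (0.60 ± 0.11, adjusted p = 0.0191). Both calls remained when each pool was left out in turn, and neither gene passed at 3 or more Cartpt UMIs (Opcml -0.62, adjusted p = 1.0; Dpp10 0.52, adjusted p = 0.878).

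Adora1, an adenosine receptor, was at 47.5 to 99.5 CPM on the left (median 77.2) and 41.1 to 63.6 CPM on the right (mean 49.6), with overlapping pools (-0.74 ± 0.14, adjusted p = 0.0191). Slc29a1, a nucleoside transporter, was at 68.3 to 107 CPM (median 92.0) and 53.9 to 69.6 CPM (median 60.3; -0.56 ± 0.11, adjusted p = 0.0448). Leaving out ML1, MR1, FL1, FL3 or FR3 ended the call of Adora1, with adjusted p up to 0.0885, and leaving out any pool except ML3, FL2 or FR3 ended that of Slc29a1, with adjusted p up to 0.116. In all neurons, which include the Cartpt-high nuclei, 14 of 14726 genes were called by side (0.0951%), among them Adora1 (-0.45) and Slc29a1 (-0.35, adjusted p = 0.0462 each). The test of whether a side difference was itself different in Cartpt-high and Cartpt-0 neurons called 0 of 12679 genes (0.0%) in edgeR, with 686 (5.41%) at an unadjusted p under 0.05, and 0 in DESeq2, with 396. Ano3, a calcium-activated scramblase family member, had the smallest p, with a median of 67.3 CPM in left and 111 CPM in right Cartpt-high pools and 174 and 182 CPM in Cartpt-0 pools (adjusted p = 0.116).

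By labelled sex 65 of 10061 genes differed within Cartpt-high neurons (edgeR, 0.646%), 16 higher (0.159%) and 49 lower (0.487%) in female-labelled pools. Itgb8, an integrin subunit, was at 154 to 257 CPM in male-labelled pools (median 197) and 86.6 to 157 CPM in female-labelled pools (median 122), a log2 fold change of -0.63 ± 0.11 (adjusted p = 0.0156). Sorcs2, a sorting receptor for neurotrophins, was at 79.2 to 128 CPM (median 87.9) and 34.1 to 68.4 CPM (median 55.4; -0.76 ± 0.14, adjusted p = 0.0156). Sorcs2's groups did not overlap, as for 0.934% of genes, and those of Itgb8 overlapped slightly. Without ML1 and FL1 the log2 fold changes were -0.69 for Itgb8 (adjusted p = 0.00197) and -0.87 for Sorcs2 (adjusted p = 0.0011).

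Grik2, a kainate receptor subunit, was at 612 to 883 CPM (median 811) in male-labelled and 446 to 649 CPM (median 536) in female-labelled pools (-0.47 ± 0.09, adjusted p = 0.0212). Tmem176b, a membrane protein of endosomes, was the 1 of these 4 genes that was higher in female-labelled pools, at 279 to 348 CPM (median 321) against 207 to 267 CPM (median 221; 0.43 ± 0.08, adjusted p = 0.0212). Without ML1 and FL1 they were at -0.56 (adjusted p = 0.000894) and 0.43 (adjusted p = 0.0158). Among Cartpt-high nuclei, 49 of the 49 genes lower in female-labelled pools had a higher level in the 9 clusters high in other cell types' markers than in the remaining clusters, and so had 1 of the 16 higher ones and 61.4% of all tested genes. Satellite glia markers summed to 719 to 1210 CPM in Cartpt-high nuclei of male-labelled pools (median 904) and 449 to 952 CPM in those of female-labelled pools (median 705), all 12 pools included. Macrophage markers summed to 22.2 to 47.0 CPM (median 31.4) and 5.53 to 25.5 CPM (median 14.1). Their part in the results by sex was not tested beyond leaving out the 9 clusters. Leaving them out also left fewer nuclei, most of all in male-labelled pools. The 9 clusters held 21 of the 30 Cartpt-high nuclei of ML2 and 22 of the 33 of ML3. The part of this loss of nuclei in the number of called genes was not tested. Without the 9 clusters 0 of 7746 genes were called by sex in edgeR, with 471 at an unadjusted p under 0.05. Itgb8 then had a log2 fold change of -0.59, Sorcs2 -0.50, Grik2 -0.09 and Tmem176b 0.42.

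The number of genes called by labelled sex rested on single pools. It was 0 without FR3, 3 without ML2, 4 without ML3 or FR1, 5 without MR2, 18 without FL3, 23 without FL2, 36 without MR3, 163 without FL1, 164 without ML1 and 223 without FR2, and 201 without both ML1 and FL1. No gene passed for an interaction of side and labelled sex (0 of 10061, 0.0%) in edgeR, with 387 (3.85%) at an unadjusted p under 0.05, or in DESeq2, with 140. The smallest p among named genes belonged to the Y-linked Eif2s3y (adjusted p = 0.141), which stood at 0 to 41.5 CPM in the ML pools and 0.790 to 39.3 CPM in the FL pools, where the labels of ML1 and FL1 go against it.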

How the data were processed

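The authors deposited a sparse matrix of raw counts (UMIs) of 30560 genes in single nuclei, made with Evercode kits (Parse Biosciences) from 8 sublibraries, per the labels' protocols; no normalization had been applied. The submitters' processing notes name mRatBN7.2, R 4.3.2 and Seurat 4.1.3; no aligner and no filter on barcodes is stated there (not given in the sources used). The nuclei, gene lists and tests were chosen with earlier results of these data known. Counts were summed per pool and group. Tests across genes used the quasi-likelihood fit of edgeR 4.0.16 (TMM, filterByExpr) in R 4.3.3, with pool as a block for Cartpt-high against Cartpt-0 nuclei and labelled sex and side as terms otherwise; DESeq2 1.42.0 was an alternative. P-values were adjusted by Benjamini-Hochberg over all tested genes, at 0.05. CPM use normalized library sizes, except sums over lists, clusters and UMI classes, which use raw totals; depth-matched values were normalized in their own fit. Cartpt and the 3 neuron genes are left out of counts of genes. Named genes were the 12 of largest fold change in each direction as described, the 4 of smallest p in each list, and the 4 of smallest p by side, by labelled sex, in their interaction and in the side difference between groups. Some list members are not reported here. Further list genes named in the text were chosen after their values were seen. Clusters came from scanpy 1.11.5 and leidenalg 0.10.2 (2000 genes without Cartpt, 30 components, 20 neighbours, resolution 1). Nuclei with 0 neuron gene UMIs and 5 or more UMIs of 1 type's markers gave the background in other cell types. Depth matching took the nearest total count within a pool. Doublets were scored with Scrublet and kept. Scripts were tested on simulated counts. The left and right pools share numbers in their names, and the labels do not say what a number marks.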

Additional observations from a re-analysis of the deposited data

Results flagged for a closer look

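Groups of 6 pools were searched for a pool that stood apart from the remaining 5, by the ratio of its gap to the group's range; 36 groups were checked, and about 1 in 20 is marked by chance. MR1 stood apart among the male-labelled pools in the level of Cartpt over all neurons: 64.5 CPM by raw totals, where the others lay between 27.4 and 39.3 CPM. FL2 stood apart among the left pools in Opcml in Cartpt-high nuclei, at 189 CPM against 87.8 to 123 CPM in the others, and Opcml remained called without FL2. Nuclei that did not meet the neuron condition held Cartpt at 26.7 CPM (233 UMIs in 5569 nuclei), and 16 of them had 2 or more Cartpt UMIs. In MR1 such nuclei held 43.4 CPM (38 UMIs). They held 10.3 to 26.1 CPM in the other male-labelled pools and 14.1 to 36.6 CPM in the female-labelled ones. Its part in the level of MR1's neurons was not tested.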

How the results depend on the processing

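The count of genes between Cartpt-high and Cartpt-0 neurons, 6410, fell to 3112 at matched depth, 2376 at matched depth and mitochondrial share, 460 within cluster 7 and 883 within cluster 5, fits with fewer nuclei and fewer genes tested; leaving out each pool gave 6014 to 6343. Genes by side in Cartpt-high neurons numbered 44 with no count filter, 3 without ML1 and FL1, 21 without the 9 clusters high in other cell types' markers, 0 at 3 or more Cartpt UMIs, and 2 to 13 without each pool. Genes by labelled sex numbered 284, 201, 0 and 0 under the same settings, 178 without the highest doublet scores, and 0 to 223 without each pool. The interaction gave 16 genes with no count filter, 1 without the 9 clusters, and 0 to 5 without each pool; the side difference between Cartpt-high and Cartpt-0 neurons gave 6, 5 and 0 to 1, and 1 without ML1 and FL1. The cause was not tested.

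Cartpt in all neurons by labelled sex passed with DESeq2 (0.60, adjusted p = 0.0079) and with no count filter (0.60, adjusted p = 0.0153), and ran from 0.53 to 0.75 without each pool; by side it ran from 0.22 to 0.44. The difference in share by labelled sex ran from 2.64 to 3.55 points without each pool. That by side passed when weighted to a common depth (1.25 points, p = 0.03 by an exact permutation test), and ran from -0.137 (without FR1) to 1.03.

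Of 1715 values of named genes in the contrast with Cartpt-0 neurons, 1619 kept direction and call and 23 turned. Without the 9 clusters Nucb2 became -0.20, Apoe -0.75, Kcnj10 -0.52 and Cdh19 -0.60. At matched depth Runx1 became 0.00, Nefl -0.08, Apoe -0.28, Kcnj10 -0.14 and Dcn 0.06; with mitochondrial share matched too, Nucb2 -0.03, Runx1 0.11, Nefl -0.23, Apoe -0.32, Kcnj10 -0.11, Dcn 0.05 and Col3a1 0.01. With 5 or more neuron gene UMIs Col1a1 became 0.02 and Col3a1 0.20. Within cluster 5 Scn1a became 0.06 and Chgb 0.85. Adcyap1 became 0.02 without FL2, and Atf3 -0.03 without MR1 and -0.09 without FL3 (range -0.09 to 0.19 without each pool). In the interaction Ddx3 became 2.5 without ML1 and FL1 and 1.34 without FL1 (range -7.35 to 1.34 without each pool). In Cartpt-high nuclei Ddx3 stood at 55.4 to 57.5 CPM in the MR pools and 0 to 1.19 CPM in the FR pools. It ran from 0 to 56.1 CPM in the ML pools and from 0 to 55.1 CPM in the FL pools. ML1 and FL1 are the pools whose labels go against the Y-linked genes.

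Deviations of same-numbered left and right pools had correlations from -0.221 to 0.146, and the labels do not say what a number marks, so the numbers were not taken as pairs. With the number as a replicate block 9 genes differed by side in Cartpt-high neurons, and Cartpt in all neurons had a log2 fold change of 0.35 (adjusted p = 0.596); without the pool block 6200 genes were called between Cartpt-high and Cartpt-0 neurons. ML2 and ML3 entered the fits by side and sex with 30 and 33 Cartpt-high nuclei.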

Other observations

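Vip, the precursor of vasoactive intestinal peptide, fell below the count filter and was picked after its values had been seen. At least 1 Vip UMI was found in 47 of 1294 Cartpt-high nuclei, in 8 of 1294 depth-matched Cartpt-0 nuclei and in 88 of all 27059 Cartpt-0 nuclei. Over the pools it stood at 0 to 10.6 CPM in Cartpt-high nuclei (median 5.64, with 3 pools at 0) and at 0.172 to 3.31 CPM in Cartpt-0 nuclei (median 0.689). With no count filter the log2 fold change was 2.17 ± 0.26 (edgeR adjusted p = 3e-15), and Vip was higher in 9 of 12 pools. Thinned to 2000 UMIs, 1.44% of Cartpt-high nuclei and 0.239% of depth-matched nuclei held a Vip UMI, and unthinned 3.63% and 0.618%. Summed by Cartpt UMIs, Vip stood at 1.12 CPM in nuclei with 0, 2.35 with 1, 2.91 with 2, 6.00 with 3 or 4 and 12.5 with 5 or more. Among Cartpt-high nuclei it was at 14.5 CPM in cluster 5, 7.39 in cluster 7 and 0 in clusters 0, 8, 13 and 23.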
